A study of Mus musculus with 39 samples.

Results

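Livers of 3 mice lacking E47 (E47KO) and of 2 wild-type (WT) mice, all exposed to dexamethasone (Dex) for 3 weeks, were compared across every gene with enough reads. The 5 libraries are those whose titles name liver, 3 weeks of Dex and either genotype, and they are part of a series of 39 libraries. The mice were adult C57BL/6 males, E47-/- in the whole body or E47+/+, and the methods describe the controls as wild-type littermates. All were fed chow ad libitum, received Dex at 10 µg/ml in the drinking water and were killed after a glucose tolerance test, for which mice were fasted overnight. All 5 animals therefore carried the steroid, and the comparison holds the effect of genotype under the drug and not the effect of the drug. Because every cell lacked E47 throughout life, a difference in liver RNA may lie in any cell type of the organ. Livers after 3 weeks of corticosterone (Cort) at 100 µg/ml, also taken after the test (4 E47KO and 4 WT), and livers of untreated mice (6 E47KO and 5 WT) are used only where they show how far the genotype difference was shared. They come from other mice and from libraries labelled stranded, whereas the Dex libraries were labelled unstranded, so that treatment and library preparation cannot be told apart in such comparisons. Nothing in the labels says more of the separateness of the 5 animals than their own numbers, and p-values measure the spread between these libraries.

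E47 belongs to the basic helix-loop-helix transcription factors. It is 1 of 2 splice forms made from *Tcf3* (also called *E2A*) and binds E-box sequences as a dimer. It is best known for B cell development, where its Id antagonists hold it from DNA. Dex is a synthetic ligand of the glucocorticoid receptor (GR), a nuclear receptor that in liver activates genes of glucose production, amino acid breakdown and lipid handling, induces its own feedback genes such as *Fkbp5* and *Per1*, and silences inflammatory genes. The liver clock is built from the activators *Arntl* and *Clock*, which act on E-boxes, and from repressors and outputs, among them *Per*, *Cry*, *Nr1d1*, *Dbp* and *Bhlhe40*, whose levels swing over the day and also respond to glucocorticoids and meals.

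Depth in annotated genes ran from 17.5 to 21.4 M (mega) counts per library, and 13300 genes passed the filter on low counts. Within a genotype they were far from uniform. Among 11727 genes with a mean of at least 1 CPM (counts per mega-count of the library, on TMM-scaled library sizes), E47KO replicate 3 stood at least 2-fold below all 4 others for 116 genes and at least 2-fold above them for 27, and WT replicate 2 did so for 142 and 100 genes. The other 3 libraries did so for 7 to 26 genes below and 4 to 19 above. E47KO replicate 3 was low in Dex-responsive genes such as *Lpin1*, a phosphatidate phosphatase (487, 488 and 52.5 CPM in the E47KO replicates in order, 521 and 697 in the WT replicates), and high in the acute phase gene *Saa1* (31.4, 37.0 and 309 CPM against 47.8 and 33.0). WT replicate 2 was high in *Rgs2*, an inhibitor of G protein signalling (3.78, 4.15 and 1.76 CPM against 4.49 and 53.0), and low in the carbonic anhydrase *Car3* (40.9, 516 and 89.7 CPM against 122 and 1.84). WT replicate 1 stood highest for enzymes of cholesterol synthesis. The animal numbers that accompany the libraries fall into a lower range (E47KO replicates 1 and 2, WT replicate 1) and a higher range (E47KO replicate 3, WT replicate 2), and values within each range are given where a group of genes depends on these animals. What the ranges stand for is not given in the sources used here.

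*Tcf3* itself was read at 14.8, 14.8 and 11.8 CPM in the E47KO libraries and 11.3 and 12.4 CPM in WT, a log2 fold change of 0.23 ± 0.16 (SE). The count pools reads of E12 and E47 over the gene (chr10:80409514-80433647, mm10), so it gives no check of the genotype. The hepatocyte markers were abundant in all 5 libraries. Their summed level was similar in the genotypes, and none of 15 reached an unadjusted p under 0.05. Summed endothelial markers were 326, 346 and 118 CPM in E47KO and 347 and 151 CPM in WT, lowest in E47KO replicate 3 and WT replicate 2, and their part in the results below was not tested.

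Across the 13300 genes, 1 gene passed an adjusted p of 0.05 (edgeR quasi-likelihood test, Benjamini-Hochberg), which is 0.00752% of those tested. Without adjustment, 409 genes (3.08%) had a p under 0.05, of which 254 were lower (1.91%) and 155 higher (1.17%) in E47KO. With a fold change of at least 1.3 as well, 238 genes were lower (1.79%) and 146 higher (1.1%), in all 384 genes (2.89%). The E47KO libraries all lay below both WT libraries for 1013 genes (7.62%) and above both for 989 (7.44%), and 49.4% of genes had a log2 fold change below 0. Apart from the single called gene, every gene below is therefore given with its values and an unadjusted p as a description of 5 animals. Each had an adjusted p of 0.13 or more in this fit.

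**Figure D1:**
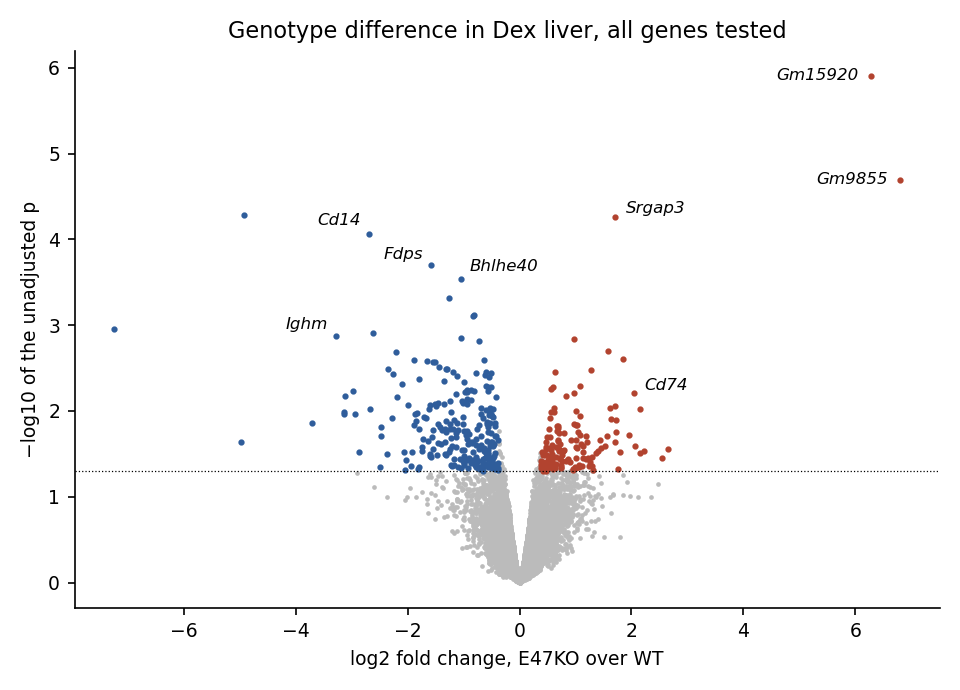
Log2 fold change of E47KO over WT (x axis) against −log10 of the unadjusted p (y axis) for 13300 genes in Dex liver. Blue and red points are the 238 lower and 146 higher genes with an unadjusted p under 0.05 (dotted line) and a change of at least 1.3-fold. *Gm15920* and *Gm9855*, both processed pseudogenes, stand alone at the upper right, and *Cd14*, *Ighm*, *Fdps* and *Bhlhe40* are marked among the lower genes.

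The gene that rose was *Gm15920*, a processed pseudogene of 402 bases on chromosome 5 (chr5:130188395-130188796, plus strand, mm10). Its E47KO libraries held 9.43, 11.3 and 11.8 CPM and its WT libraries 0.195 and 0.0595 CPM, or 10.8 ± 1.25 (SD, n = 3) against 0.127 ± 0.0959 CPM (SD, n = 2). In reads, these were 669 in E47KO and 5 in WT, a ratio of 80.7 with an exact 95% interval of 34.4 to 249 for counting error. The log2 fold change was 6.28 ± 0.39 (SE, edgeR quasi-likelihood test, Benjamini-Hochberg adjusted p = 0.0166). *Gm15920* is 99.5% identical to the coding transcript of *Ndufa12*, a subunit of mitochondrial complex I on chromosome 10 (chr10:94198720-94221443), so its count depends on how reads shared by the 2 genes were assigned and is uncertain. *Ndufa12* was at 44.3, 44.0 and 52.4 CPM in E47KO and 32.7 and 42.7 CPM in WT, log2 fold change 0.32 ± 0.16. Over their 402 aligned bases the genes differ at only 2 positions, and the stretches around them, which are what could tell a read of one from a read of the other, are printed from the GENCODE transcript of the pseudogene (mm10), with the differing base in capitals. Positions are counted from its 5′ end, and the *Ndufa12* base comes first.
*Gm15920*, A99G: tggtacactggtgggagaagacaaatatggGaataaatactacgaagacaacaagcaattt
*Gm15920*, T378C: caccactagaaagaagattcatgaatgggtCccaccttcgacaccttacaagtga
The contrast was of the same direction in quadriceps muscle of Dex-treated mice, with *Gm15920* at 27.0, 29.7 and 30.5 CPM in E47KO and 0.853 and 0.791 CPM in WT. E47KO replicates 1 and 2 and WT replicate 1 of muscle carry the animal numbers of the livers, so the tissues are not independent animals. In the other livers the genotypes overlapped or nearly met. Scaled over all 24 livers, the level was 6.72 to 8.92 CPM in Cort E47KO and 0.196 to 4.51 in Cort WT, and 0.69 to 23.98 in untreated E47KO and 0.425 to 11.6 in untreated WT. The call was lost when any 1 of the E47KO replicates was left out, with the animal number range as a covariate and in a joint fit of the 24 livers.

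Among the lower protein-coding genes was *Cd14*, the co-receptor for bacterial lipopolysaccharide, at 1.96, 1.22 and 2.02 CPM in E47KO and 13.9 and 8.39 CPM in WT, log2 fold change -2.69 ± 0.32. On the scale of the 24 livers, untreated mice of both genotypes held 0.77 to 1.6 CPM and Cort mice 0.858 to 13.1 CPM, so the E47KO Dex livers lay near the untreated level and the WT Dex livers at the top of the Cort range. *Frmd4b*, a scaffold protein, was at 24.6, 28.5 and 22.2 CPM against 43.9 and 45.5, and *Cited2*, a transcriptional coregulator, at 6.22, 6.27 and 6.65 against 10.7 and 15.6 CPM. Their log2 fold changes were -0.83 ± 0.14 and -1.04 ± 0.20. *Chac1*, a glutathione-degrading enzyme induced by amino acid and endoplasmic reticulum stress, was at 2.82, 2.98 and 2.61 CPM against 6.39 and 7.14, log2 fold change -1.27 ± 0.20. It stood apart from its list, since 9 of 18 tested genes of endoplasmic reticulum stress and heat shock were lower and only *Chac1* had an unadjusted p under 0.05.

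Among the higher protein-coding genes *Srgap3*, a GTPase-activating protein, came first by unadjusted p. It was at 10.6, 11.0 and 12.0 CPM in E47KO and 3.76 and 3.03 CPM in WT, log2 fold change 1.71 ± 0.19 (edgeR quasi-likelihood, Benjamini-Hochberg adjusted p = 0.182). In the 11 untreated livers *Srgap3* ranged from 2.7 to 7.93 CPM on the scale of the 24 livers, so that the Dex E47KO livers lay above and the Dex WT livers within that range. *Ces1b*, a carboxylesterase, was at 108, 86.3 and 103 CPM against 58.7 and 42.5, and the retinol dehydrogenase *Rdh16f2* at 23.7, 20.4 and 28.2 against 14.4 and 8.33. *Agxt*, the alanine-glyoxylate aminotransferase, was at 175, 202 and 181 CPM against 133 and 113, and *Clpx*, the chaperone subunit of a mitochondrial protease, at 435, 473 and 430 against 287 and 292. Their log2 fold changes were 0.97 ± 0.19, 1.08 ± 0.26, 0.60 ± 0.15 and 0.63 ± 0.14. Also higher, without overlap, were *Abtb2* (0.57), the unfolded protein response enzyme *Parp16* (0.97), the transporter *Abca8b* (0.62) and the ubiquitin ligase *Rnf125* (1.01), all as log2 fold changes.

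**Figure D2:**
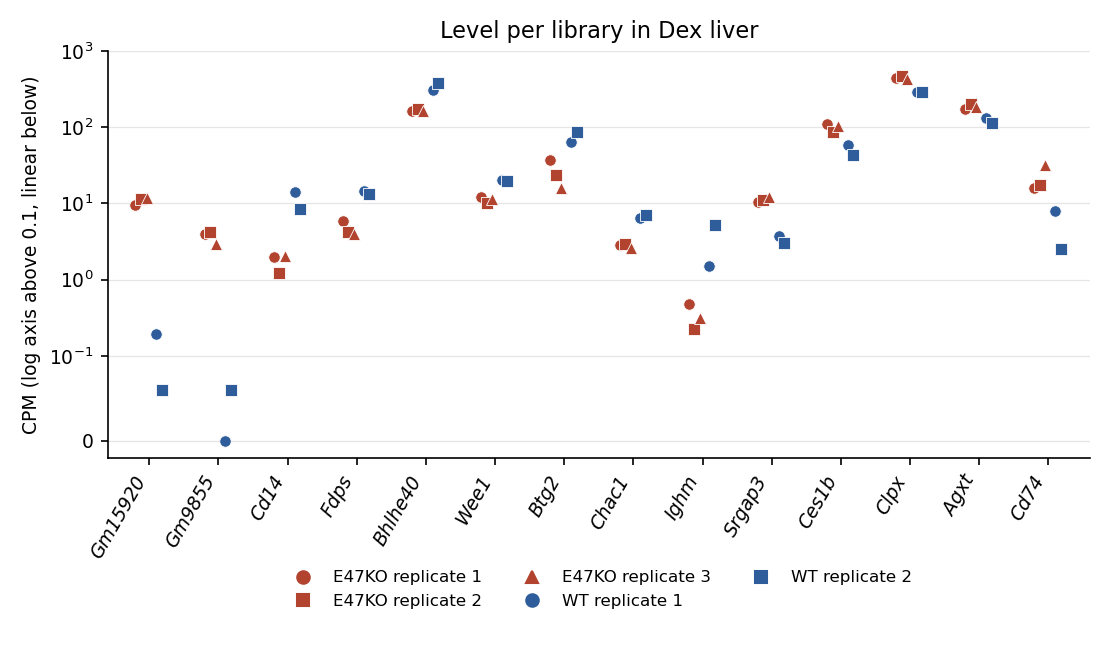
CPM in each of the 5 Dex livers (log axis above 0.1 CPM, linear below) for *Gm15920*, *Gm9855* and leading genes, with circles, squares and triangles for replicates 1, 2 and 3. The 3 E47KO points lie together for most genes, while the WT points of *Ighm* stand apart, at 1.51 and 5.24 CPM.

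The clock genes of the repressor and output arm were lower in E47KO as a group. Of 14 genes, 13 had a log2 fold change below 0, 7 had an unadjusted p under 0.05 and a lower level (background 1.91%), and 10 lay below both WT libraries without overlap (background 7.62%). The median log2 fold change was -0.71, where that of all genes was 0.00. *Bhlhe40* (also *Dec1*, chr6:108660629-108666925) represses the activator pair at E-boxes and had the smallest p. It was at 163, 173 and 162 CPM in E47KO and 302 and 382.4 CPM in WT, log2 fold change -1.04 ± 0.15 (edgeR quasi-likelihood, Benjamini-Hochberg adjusted p = 0.556). Its paralogue *Bhlhe41* was at 5.6, 6.27 and 7.98 CPM against 10.0 and 26.3, log2 fold change -1.45 ± 0.39. The period gene *Per2* was at 11.0, 16.4 and 10.1 CPM against 26.2 and 21.5, and the cryptochrome *Cry2* at 17.7, 23.1 and 16.2 against 27.3 and 34.4. Both feed back on the activators, and their log2 fold changes were -0.93 ± 0.23 and -0.70 ± 0.19. *Nr1d1*, the haem-binding repressor of *Arntl*, was at 39.3, 48.1 and 44.3 CPM against 66.8 and 78.6, log2 fold change -0.73 ± 0.14. Among outputs, the mitotic kinase *Wee1* was at 12.3, 10.2 and 11.5 CPM against 20.1 and 19.8, and the albumin D-box binding factor *Dbp* at 1.34, 7.49 and 3.46 against 14.6 and 12.5. For *Wee1* each genotype was tight, whereas the *Dbp* values of the E47KO livers spread more than 5-fold (log2 fold changes -0.82 ± 0.14 and -1.72 ± 0.58). *Nr1d2* (-0.35), *Ciart* (-0.96) and *Per1* (-0.63) were lower without overlap at an unadjusted p above 0.05. *Hlf* was at 46.3, 51.9 and 35.1 CPM against 42.5 and 43.6, with a log2 fold change of 0.05.

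In the activator and antiphase arm, 5 of 7 genes had a log2 fold change above 0 and 3 had an unadjusted p under 0.05 and a higher level (background 1.17%). *Arntl* was at 34.0, 26.2 and 21.6 CPM in E47KO and 16.5 and 19.9 CPM in WT, and *Cry1* at 29.9, 22.6 and 19.4 against 16.0 and 15.9. Their log2 fold changes were 0.58 ± 0.22 and 0.58 ± 0.20. *Cry1* lies 4.74 Mb from *Tcf3*, and the part of this position was not tested. *Clock*, *Rora* and *Nfil3* overlapped between genotypes. The arm was less settled than the other: its median of 0.43 was -0.07 without E47KO replicate 1 and -0.02 without WT replicate 1. Within the lower animal number range its median was 0.46, with 0 of 7 genes lower. Within the higher range it was -0.23, with 4 of 7 lower. The repressor arm kept a median between -0.97 and -0.57 over the 5 fits that each left out a library, with 5 to 12 lower genes at an unadjusted p under 0.05, and was at -0.66 within the lower and -1.07 within the higher animal number range. The hour at which the animals were killed is not given for single livers in the sources used here, and its part in the clock genes was not tested.

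Elsewhere the repressor arm showed no such shift, with a median log2 fold change of 0.16 in Cort and -0.03 in untreated liver. In the joint fit of 24 livers, 0 of 15976 genes (0%) passed an adjusted p of 0.05 for the difference of genotype effects by edgeR and 436 (2.73%) against Cort and 599 (3.75%) against untreated liver had an unadjusted p under 0.05, while DESeq2 called 1 and 2. The difference of effects had an unadjusted p under 0.05 for 5 of the 14 genes against Cort (background 2.73%) and 3 against untreated liver (background 3.75%). These differences were -0.89 ± 0.23 and -0.70 ± 0.21 for *Cry2* and -1.29 ± 0.33 and -1.03 ± 0.31 for *Bhlhe40* (log2, SE), none past adjustment. On the scale of the 24 livers the Dex WT livers held 308 and 390 CPM of *Bhlhe40* and the Dex E47KO livers 165 to 175, where Cort and untreated livers held 75.9 to 178. The WT Dex livers thus stood above every other liver for this gene. For *Cry2* all 5 Dex livers, at 16.5 to 35.1 CPM, lay below or in the lower part of the 32.4 to 52.7 CPM of the other livers, the E47KO ones furthest below. In muscle, *Bhlhe40* was at 124, 157 and 259 CPM in E47KO and 232 and 168 CPM in WT, with overlap.

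Since the clock activators and E47 both use E-boxes, promoter windows of RefSeq (GRCm38.p6, 250 bases before to 50 after each annotated start) were searched on both strands. Of 428 tested genes in all lists, 326 had a window. The canonical clock E-box CACGTG, which is 1 form of the general E-box CANNTG, stood in 5 of 13 windows of the repressor arm, where a gene may have more than 1 start, in the genes *Bhlhe41*, *Ciart*, *Per1* and *Tef*, and in 7.15% of all 32851 windows. It was also in 5 of 24 windows of early genes, 5 of 24 of GR targets and 4 of 16 of sterol sensing genes. CAGGTG was in 5 of 13 windows of the repressor arm and in 7 of 16 of sterol sensing genes. CANNTG itself was in 72.3% of all windows, and its forms CAGGTG and CAGCTG in 20.2% and 16.3%. Other letters searched were TCACNCCAC (sterol element, 1.24%), TGACGTCA (cyclic AMP element, 1.79%), TTATGTAA (D-box, 0.938%) and CTGATTGG (CCAAT or Y box, 4.1%). *Ciart*, a clock-controlled repressor, has the most CACGTG matches of these windows, 3, shown in capitals, and was at 4.88, 9.20 and 1.65 CPM in E47KO against 10.9 and 9.64 in WT. Its window is chr3:95882179-95882478 on the minus strand.
*Ciart* promoter: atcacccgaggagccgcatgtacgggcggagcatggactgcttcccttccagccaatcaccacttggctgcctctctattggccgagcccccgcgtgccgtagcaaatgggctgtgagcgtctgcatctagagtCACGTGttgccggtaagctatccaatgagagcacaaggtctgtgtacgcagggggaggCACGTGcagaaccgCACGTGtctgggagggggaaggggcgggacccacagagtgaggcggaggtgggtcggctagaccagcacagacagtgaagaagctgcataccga
A match is a run of letters and not a bound site.

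**Figure D3:**
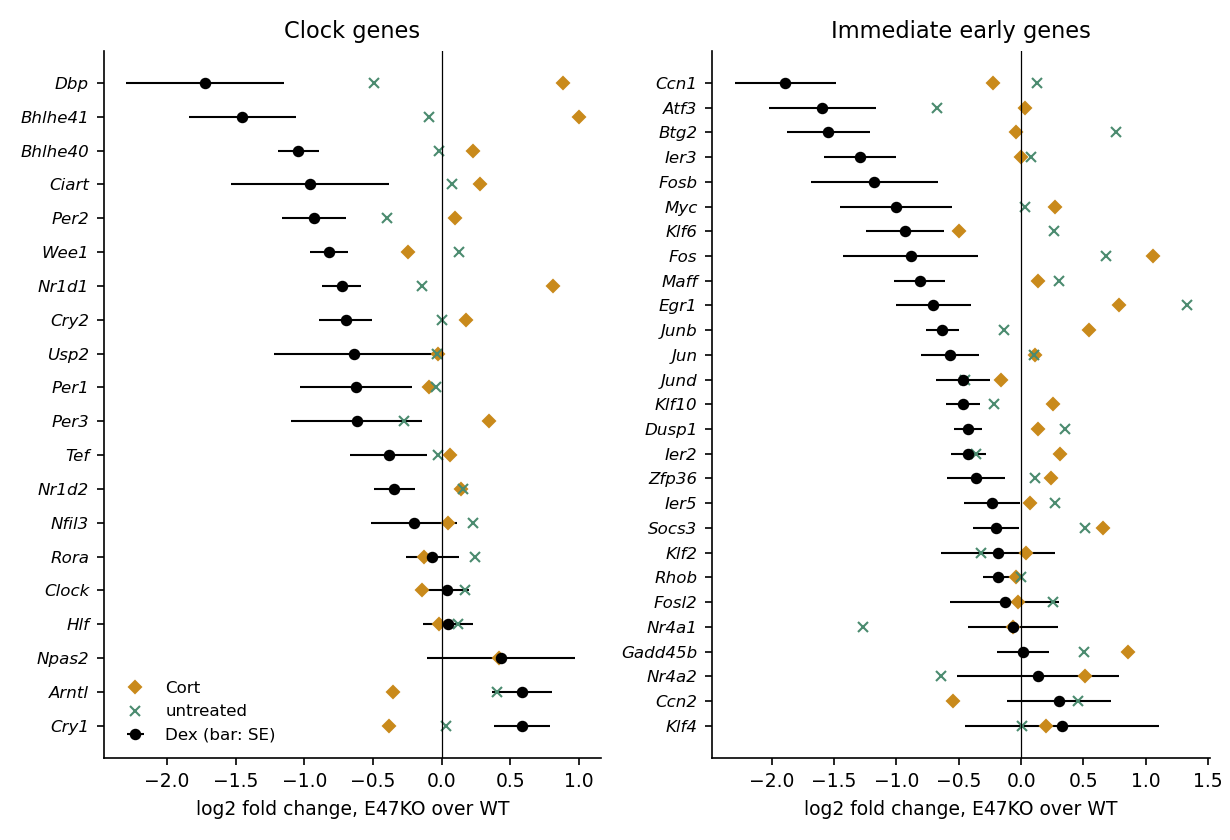
Log2 fold change of E47KO over WT for clock genes (left, 1 gene not shown) and each immediate early gene (right) in Dex liver (black, bar = SE, 5 libraries), with the fitted changes in Cort (orange) and untreated liver (green), x axis in log2 units. The black points of most repressor and output genes and of most early genes lie left of 0, while the Cort and untreated points scatter around it.

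Immediate early genes, which encode short-lived transcription factors, phosphatases and secreted proteins induced within minutes of a stimulus, were the other group set lower across both WT animals. Of 27 tested, 23 had a log2 fold change below 0, 11 had an unadjusted p under 0.05 (background 1.91%) and 15 lay below both WT libraries (background 7.62%), with a median of -0.47. *Btg2*, an antiproliferative gene, was at 37.1, 23.5 and 16.0 CPM in E47KO and 63.1 and 86.5 in WT, log2 fold change -1.55 ± 0.33. *Junb*, of the AP-1 family, was at 35.5, 36.9 and 32.4 CPM against 49.3 and 59.1, and the stress-induced factor *Atf3* at 25.4, 9.43 and 14.6 against 34.2 and 65.5. The matricellular gene *Ccn1* was at 6.32, 3.93 and 3.67 CPM against 10.1 and 24.5. For these genes every E47KO library lay below both WT libraries, at log2 fold changes of -0.63 ± 0.14, -1.59 ± 0.43 and -1.89 ± 0.41. *Ier3* (-1.29) and *Dusp1* (-0.43), a phosphatase that is also a GR target, were lower as well, while *Gadd45b* was at 139, 106 and 105 CPM against 96.1 and 135 and *Nr4a1* at 26.9, 22.2 and 12.4 against 27.5 and 15.5, with overlap. The median stayed between -0.50 and -0.41 over the 5 fits that left out a library, with 8 to 12 genes at an unadjusted p under 0.05 but 3 in the joint fit of 24 livers, and was -0.38 and -0.62 within the animal number ranges. It was 0.12 in Cort and 0.11 in untreated liver. For the difference of effects, 2 genes had an unadjusted p under 0.05 against Cort (background 2.73%) and 2 against untreated liver (background 3.75%). In both cases 1 of them was *Btg2*, whose effect differed by -2.31 ± 0.57 from untreated liver and by -1.52 ± 0.60 from Cort (log2, SE). Its Dex WT livers, at 64.3 and 88.2 CPM on the scale of the 24 livers, stood above the 5.79 to 29.5 CPM of the untreated ones. The cyclic AMP element TGACGTCA was in 3 of 24 early gene windows (*Btg2*, *Dusp1* and *Maff*), and the *Btg2* window, chr1:134079106-134079405 on the minus strand, is shown because this gene had the strongest difference from untreated liver of the list.
*Btg2* promoter: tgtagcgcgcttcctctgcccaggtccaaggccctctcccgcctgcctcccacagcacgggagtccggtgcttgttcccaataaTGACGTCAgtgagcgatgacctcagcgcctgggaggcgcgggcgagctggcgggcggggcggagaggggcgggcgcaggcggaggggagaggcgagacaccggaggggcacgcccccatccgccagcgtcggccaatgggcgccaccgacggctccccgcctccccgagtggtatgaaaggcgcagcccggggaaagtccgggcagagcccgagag

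Cholesterol synthesis, the chain of enzymes from acetyl-CoA to cholesterol, was lower in E47KO in nearly all its steps. Of 20 enzymes, 18 had a log2 fold change below 0, with a median of -0.70. An unadjusted p under 0.05 was found for 8 (background 1.91%), and 6 lay below both WT libraries (background 7.62%). *Fdps*, farnesyl diphosphate synthase, was the only member far below both WT animals: it was at 5.89, 4.20 and 3.94 CPM in E47KO and 14.6 and 13.3 CPM in WT, log2 fold change -1.58 ± 0.22 (edgeR quasi-likelihood, Benjamini-Hochberg adjusted p = 0.443). *Sqle*, squalene epoxidase, was at 26.0, 58.7 and 42.5 CPM against 118 and 82.5. *Dhcr7*, which acts last in one branch, was at 23.3, 32.4 and 23.1 CPM against 56.5 and 33.4. WT replicate 1 held the highest value of both and WT replicate 2 one closer to the upper E47KO livers, with log2 fold changes of -1.24 ± 0.33 and -0.78 ± 0.26. *Hmgcs1*, an early synthase of the chain, was at 100, 186 and 163 CPM against 356 and 144, log2 fold change -0.74 ± 0.41.

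The cholesterol result rested on WT replicate 1. Without it the median was -0.06, with 13 of 20 enzymes lower and 2 at an unadjusted p under 0.05, and *Hmgcs1* turned to 0.057. Within the lower animal number range the median was -1.10 and within the higher -0.18. Summed over the list, the libraries held 1260, 1816 and 1522 CPM in E47KO and 2633 and 1605 in WT. The median was also below 0 in Cort liver (-0.42, 19 of 20 enzymes below 0) and was 0.23 in untreated liver. For the difference of effects, 9 of 20 enzymes had an unadjusted p under 0.05 against untreated liver (background 3.75%) and 0 against Cort (background 2.73%). The list's smallest adjusted p against untreated liver was 0.91 (edgeR quasi-likelihood, Benjamini-Hochberg). Sterol sensing and transport genes showed less: 11 of 18 were lower and 3 had an unadjusted p under 0.05 (background 1.91%), with a median of -0.06. The count was 0 without E47KO replicate 1, without WT replicate 1 and with a replicate block, and 1 without E47KO replicate 3. Among these were the sterol-responsive factor *Srebf2* (50.3, 57.8 and 46.4 against 67.2 and 66.0) and the transfer protein *Stard4* (-0.65 as log2 fold change). *Srebf2* was low in all 3 E47KO livers and even in WT, at -0.37 ± 0.13.

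Of fatty acid and triglyceride genes, 16 of 22 had a log2 fold change below 0 and 3 had an unadjusted p under 0.05 (background 1.91%, and 0 of 22 in the joint fit of 24 livers), with a median of -0.28. *Fasn*, fatty acid synthase, was at 54.6, 67.4 and 62.6 CPM in E47KO and 94.9 and 86.1 CPM in WT, and the acyltransferase *Gpam* at 150, 127 and 117 against 166 and 195.7. The elongase *Elovl6* was at 7.18, 9.07 and 14.9 CPM against 17.2 and 18.6. Each lay below both WT animals, with log2 fold changes of -0.56 ± 0.14, -0.46 ± 0.16 and -0.79 ± 0.30. *Acacb*, acetyl-CoA carboxylase 2, was at 91.4, 57.4 and 49.0 CPM against 89.9 and 103, with overlap (-0.55 ± 0.26). Among 15 apolipoprotein and lipoprotein assembly genes, 8 were lower and the median was 0.00. *Apoa4* was at 1610, 797 and 1629 CPM against 1985 and 3921 and *Apoc2* at 168, 170 and 257 against 282 and 319, log2 fold changes -1.13 ± 0.40 and -0.60 ± 0.22, and both had an unadjusted p under 0.05.

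Glucose genes did not differ as a group. Of 20 genes of glucose production and insulin action, 10 were lower and 1 had an unadjusted p under 0.05 (background 1.91%), with a median of -0.03. *Pck1*, the phosphoenolpyruvate carboxykinase of gluconeogenesis, was at 4538, 4234 and 5276 CPM in E47KO and 4970 and 6060 in WT, log2 fold change -0.24 ± 0.21. *G6pc*, the glucose-6-phosphatase that releases glucose, was at 94.5, 122 and 133 CPM against 108 and 85.6, log2 fold change 0.26 ± 0.19. *Igfbp1*, an insulin-repressed binding protein, was at 1951, 914 and 1218 CPM against 1449 and 1756, log2 fold change -0.24 ± 0.32. The genotypes overlapped for all 3. The exception in the list was *Ppp1r3c*, which targets a phosphatase to glycogen: it was at 67.6, 34.7 and 20 CPM against 52.4 and 258, so that its log2 fold change of -1.92 ± 0.70 came with overlap and with WT replicate 2 far above the rest. Of the 11 glucose and lipid genes that the study's text names, 10 were lower, with a median of -0.46. An unadjusted p under 0.05 was reached by 4 (background 1.91%), *Dhcr7*, *Gpam* and *Apoa4* among them. That list was chosen on these samples among others, so its direction is no independent evidence.

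Classical GR targets were split by animal more than by genotype. All 16 had a log2 fold change below 0 and the median was -0.51. Of these, 2 had an unadjusted p under 0.05 (background 1.91%) and 4 lay below both WT libraries without overlap (background 7.62%). *Fkbp5*, the co-chaperone that dampens GR, was at 406, 352 and 76.9 CPM in E47KO and 400 and 592 CPM in WT, log2 fold change -0.83 ± 0.61. *Cdkn1a*, a cell cycle inhibitor, was at 195.6, 154 and 13.5 CPM against 128 and 186, and *Zbtb16*, a zinc finger repressor, at 103, 77.9 and 12.0 against 79.7 and 114. In all of these E47KO replicates 1 and 2 lay at the WT level and E47KO replicate 3 far below. Scaled over the 24 livers, E47KO replicate 3 held 78.3 CPM of *Fkbp5* and 12.2 of *Zbtb16*, within the untreated ranges of 18.6 to 113 and 2.0 to 42.6, and 13.8 CPM of *Cdkn1a*, above the untreated range of 0.667 to 3.45. The median of the list was 0.02 within the lower animal number range and -1.48 within the higher. Without E47KO replicate 3 it was -0.24, with 13 of 16 genes below 0, and without WT replicate 2 it was -0.25. The 4 members without overlap were *Dusp1* (49.7, 49.5 and 46.5 CPM against 64.5 and 66.0), the oestrogen sulfotransferase *Sult1e1* (363, 275 and 335 against 402 and 561), *Klf9* (176, 173 and 112 against 190 and 190) and *Per1* (37.8, 36.8 and 14.0 against 38.0 and 53.4). For *Per1*, E47KO replicate 1 and WT replicate 1 nearly met. *Klf9* and *Per1* were lowest in E47KO replicate 3. The medians in Cort and untreated liver were -0.31 and 0.30. Among 24 genes of GR itself, FoxO factors and coregulators, 15 were lower with a median of -0.03. The 2 with an unadjusted p under 0.05 (background 1.91%) were the leucine zipper factor *Cebpb* (38.4, 49.99 and 62.1 CPM against 72.1 and 94.1) and *Onecut1* (-2.37 ± 0.88). *Onecut1* was at 26.8 CPM in WT replicate 2 and 1.17 to 4.64 in the others.

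**Figure D4:**
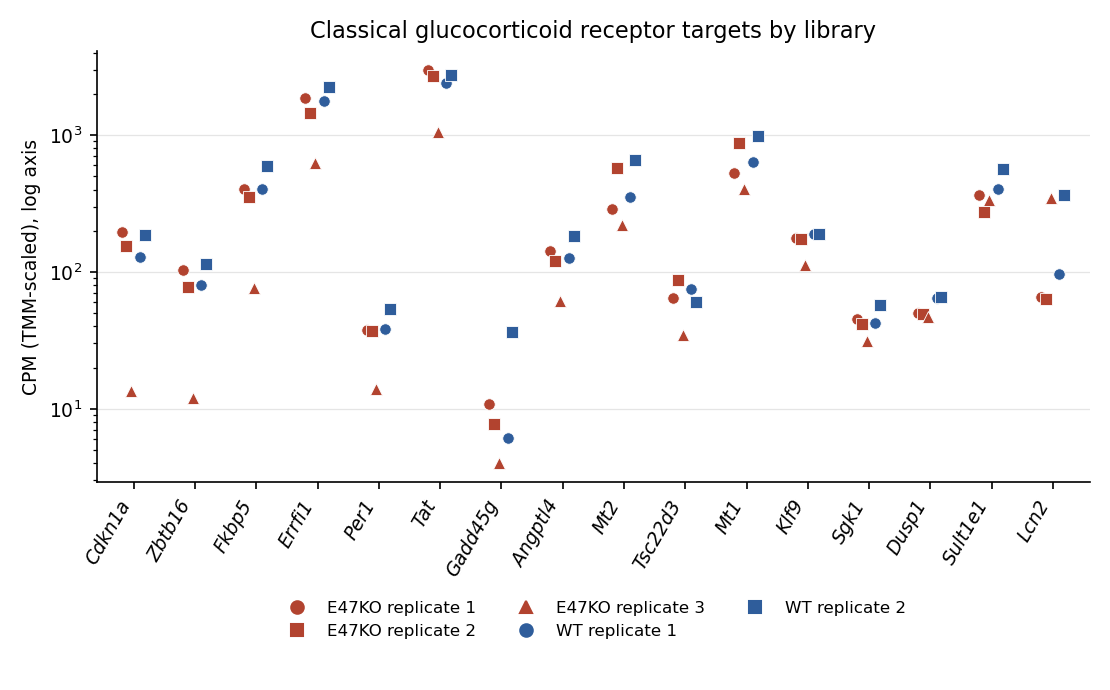
CPM per library (log axis) of the 16 classical GR targets, ordered by how far E47KO replicate 3 (triangle) lies below the median of the other 4 libraries. The triangle is lowest for *Cdkn1a*, *Zbtb16*, *Fkbp5*, *Errfi1*, *Per1* and *Tat*, where the other 2 E47KO points lie among or close to the WT points.

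The MHC class II genes, which present peptides to CD4 T cells, were higher in E47KO without exception. All 7 tested lay above both WT libraries (background 7.44%), 4 had an unadjusted p under 0.05 (background 1.17%), and the median log2 fold change was 1.86. *Cd74*, the invariant chain, was at 15.8, 17.6 and 31.4 CPM in E47KO and 7.85 and 2.5 CPM in WT, log2 fold change 2.04 ± 0.52. *H2-Ab1* was at 5.41, 6.00 and 15.4 CPM against 3.46 and 2.5, *H2-Aa* at 5.12, 6.14 and 13.1 against 3.95 and 0.417, and *H2-Eb1* at 4.36, 4.42 and 11.4 against 2.49 and 0.298. These chains were highest in E47KO replicate 3 and lowest in WT replicate 2, at log2 fold changes of 1.57 ± 0.52, 1.86 ± 0.80 and 2.22 ± 0.81. *Ciita*, the coactivator that drives the class, was at 0.479, 0.271 and 0.745 CPM against 0.146 and 0. Summed, the list stood at 33.0, 36.8 and 75.6 CPM against 19.4 and 6.84. The median was 1.13 without E47KO replicate 3, 1.36 without WT replicate 2 and 3.11 without WT replicate 1, with 2, 1 and 5 genes at an unadjusted p under 0.05, and it was 0.64 and 2.51 within the lower and higher animal number ranges. In Cort it was 0.65 and in untreated liver 0.21, with 4 of 7 genes at an unadjusted p under 0.05 in Cort itself (background in Cort 9.84%). For the difference of effects, 6 of 7 genes had such a p against untreated liver (background 3.75%) and 2 of 7 against Cort (background 2.73%), with *Cd74* at 1.77 ± 0.44 against untreated liver (log2, SE). On the scale of the 24 livers *Cd74* was at 23.0 to 48.9 CPM in untreated livers of both genotypes, at 5.6 to 14.1 in Cort livers, at 16.1 to 32.0 in Dex E47KO and at 8.0 and 2.55 in Dex WT. The Dex WT livers thus lay in or below the Cort range and E47KO replicate 3 within the untreated one. In bulk tissue, more antigen-presenting cells and more class II RNA per cell cannot be told apart.
Of the 5 class II promoter windows, the Y box letters CTGATTGG were in 2, and both are shown with that box in capitals, together with a cyclic AMP element in *H2-Aa* (chr17:34287774-34288073, minus strand, and chr17:34305617-34305916, plus strand).
*H2-Aa* promoter: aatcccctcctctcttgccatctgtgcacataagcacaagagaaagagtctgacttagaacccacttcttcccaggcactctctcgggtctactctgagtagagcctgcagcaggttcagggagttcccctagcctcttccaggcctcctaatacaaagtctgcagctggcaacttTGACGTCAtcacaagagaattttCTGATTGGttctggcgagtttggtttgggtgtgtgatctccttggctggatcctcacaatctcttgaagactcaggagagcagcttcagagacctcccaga
*H2-Eb1* promoter: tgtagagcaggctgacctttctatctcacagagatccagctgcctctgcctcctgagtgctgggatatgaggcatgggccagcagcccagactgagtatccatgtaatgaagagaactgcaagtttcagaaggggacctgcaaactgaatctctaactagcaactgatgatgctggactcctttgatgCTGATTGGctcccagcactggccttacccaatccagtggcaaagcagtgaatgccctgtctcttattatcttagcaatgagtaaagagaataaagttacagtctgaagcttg

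Immunoglobulin transcripts ran the other way but were close to the limit of detection in these livers. Only 4 of 18 B cell markers passed the filter and 6 had no count in any library. *Ighm*, the IgM heavy chain, was at 0.479, 0.226 and 0.319 CPM in E47KO and 1.51 and 5.24 CPM in WT, log2 fold change -3.27 ± 0.62, and *Igkc*, the kappa light chain, at 0.335, 0 and 0.426 against 1.51 and 2.92. The plasma cell genes *Igha* (0.191, 0.0451 and 0.426 CPM against 0.683 and 2.74) and *Jchain* (0.335, 0.451 and 0.479 against 0.780 and 1.19) were lower too. Of the 8 plasma cell markers these 2 of 4 tested had an unadjusted p under 0.05 (background 1.91%). The other two, *Xbp1* and *Sdc1*, which are not confined to plasma cells, overlapped at log2 fold changes of -0.26 and 0.06, and the untested *Derl3* (6, 9 and 22 reads against 7 and 7) and *Mzb1* (7, 14 and 4 against 6 and 4) overlapped too. *Ighm*, *Igkc*, *Igha* and *Jchain* lay below both WT animals, whereas the other tested B cell markers *Blk* and *Cd37* overlapped. The untested B cell markers *Vpreb3* (1, 14 and 1 reads against 2 and 0), *Cd79a* (0, 4 and 0 against 1 and 1) and *Cd22* (1, 5 and 3 against 4 and 0) overlapped too. Summed B cell markers, with *Ighm* and *Igkc* among them, were 3.02, 3.47 and 1.81 CPM against 5.71 and 9.28, and their part in other results was not tested. Of macrophage and Kupffer cell markers 8 of 13 were lower with a median of -0.01, and the scavenger receptor *Marco* alone had an unadjusted p under 0.05 (19.3, 29.1 and 19.8 CPM against 29.6 and 39.8). Only 2 of 16 T and NK cell markers and 4 of 10 neutrophil markers passed the filter.

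**Figure D5:**
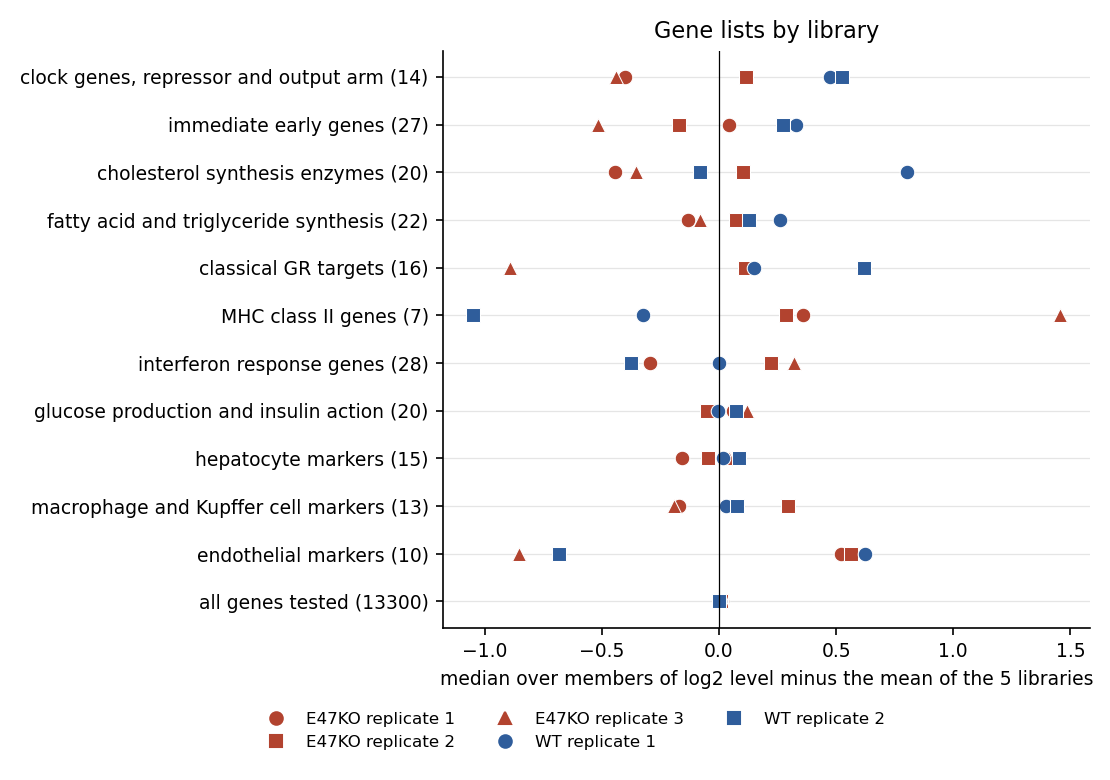
Median over the members of a list (number tested in brackets) of the log2 level minus the mean of the 5 libraries, 1 point per library. Both WT points lie right of the E47KO points for clock repressor and early genes, WT replicate 1 alone stands out for cholesterol synthesis, E47KO replicate 3 lies lowest and WT replicate 2 highest for GR targets, and the MHC class II points spread from WT replicate 2 to E47KO replicate 3.

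The other lists held few genes at an unadjusted p under 0.05, against a background of 1.91% lower and 1.17% higher. Interferon response genes had 8 of 28 lower and a median of 0.24, with *Tgtp1* (6.65, 4.74 and 2.93 CPM against 5.76 and 26.4) and *Iigp1* (106, 120 and 150 against 183 and 163) lower at an unadjusted p under 0.05, the former with overlap. None of 20 acute phase genes reached that p. PPAR alpha and fasting genes were higher in 15 of 20 (median 0.08, 1 at an unadjusted p under 0.05), led by *Ehhadh*, a peroxisomal beta-oxidation enzyme, at 846, 414 and 365 CPM against 327 and 220. Of bile acid genes 10 of 13 were higher (median 0.20, 1 at that p), and *Cyp8b1*, the sterol 12-hydroxylase, was at 503, 634 and 500 CPM against 362 and 180, log2 fold change 1.01 ± 0.31. Drug-metabolising P450 genes had 17 of 27 higher, 2 at that p, and a median of 0.20, with *Cyp2c29* at 1426, 1864 and 2430 CPM against 1376 and 896. Of 17 amino acid enzymes 9 were higher, 1 at that p, and 5 lay above both WT libraries (background 7.44%), while 1 was lower at that p. Of 11 genes of the growth hormone axis 8 were higher and 3 lay above both WT libraries, and of 6 tested female-biased genes 3 were higher, 2 at that p. In the growth hormone axis *Cux2*, a female-biased repressor, was at 2.35, 0.857 and 1.81 CPM against 0.488 and 0.238, and the male-biased *Selenbp2* was at 247, 358 and 395 against 578 and 1120. *Selenbp2* had a log2 fold change of -1.35 ± 0.32, while the 12 male-biased genes had a median of -0.23. The E proteins and their Id inhibitors had no member at an unadjusted p under 0.05, and *Id2*, the most abundant inhibitor here by CPM, was at 119, 135 and 266 CPM against 114 and 96.0.

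How far the direction of the genotype difference was shared with the other livers is given as counts. Of the 223 lower genes by the 1.3-fold rule that were also tested in Cort, 150 were lower there (67.3%), where 55.4% of all genes lower after Dex were. Of the 144 higher genes, 92 were higher in Cort (63.9%, against 56.6% of all). In untreated liver the shares were 107 of 216 (49.5%, against 52.6%) and 86 of 142 (60.6%, against 50.4%). The 3 comparisons share no libraries, and the differences between these shares were not tested. In Cort 4 of 14588 genes tested passed the adjusted threshold (0.0274%, edgeR quasi-likelihood, Benjamini-Hochberg) and 9.84% had an unadjusted p under 0.05. In untreated liver 4 of 13904 passed (0.0288%) and 3.63% had such a p.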

How the data were processed

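Poly(A) RNA of liver was sequenced by the authors, who aligned the reads to mouse mm10 with Ensembl gene models and counted them per gene. The study's methods name STAR 2.4.2a. The submitters' processing notes also list HTSeq and DESeq2, and the closing lines of the Dex files carry another counter's names, which leaves the counting program uncertain. The deposited values are raw counts, with a file for each library, neither normalized nor pooled. Entries naming no gene made up 31.1 to 36.8% of the Dex libraries and stayed out of library sizes and tests. Of 46078 identifiers, 45229 matched the GENCODE annotation of mm10. No replicate pair was alike enough to be the same library (chi-square over its degrees of freedom 32.4 to 68.9). The authors' own DESeq2 tables of fold changes and p-values, and the libraries of adipose tissue and of 1 hour of Dex, were not used.

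Genotypes were compared in the 5 libraries with edgeR 4.0.16 (R 4.3.3): TMM normalization, filterByExpr, the two-sided quasi-likelihood F test, and Benjamini-Hochberg adjustment at 0.05 over all genes tested. A display threshold combined an unadjusted p under 0.05 with a change of at least 1.3-fold. CPM are relative to TMM-scaled library sizes. The SE of a log2 fold change is its size divided by the square root of F. Differences of genotype effects were tested over 24 livers with a mean per group, using the unstranded column of every library, since in the Cort libraries both strand columns were nearly equal (50.1% in the larger). Alternatives were RLE size factors, no filter, DESeq2 1.42.0, a replicate block, the animal number range as a covariate, a joint fit of 24 livers, the strand column, and leaving out each library. The scripts were tested on simulated data. For the genotype comparison, 29% of simulated 2-fold and 81% of 4-fold changes passed the adjusted threshold, with 12 false calls. For the difference from Cort, 26% and 56% passed, with 3 false calls. Intervals and the floor of 3 reads cover counting error only.

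The compared groups, the 36 gene lists (495 genes, 428 tested) and the tests were chosen with earlier results of these data known, and lists are described by counts and medians beside those of all genes. Named genes are *Tcf3*, genes passing the adjusted threshold, the 10 lower and 10 higher protein-coding genes with the smallest unadjusted p among those of at least 5 CPM whose libraries do not overlap, the study's glucose and lipid genes, and in each list the 4 members with the smallest p and the largest opposite one, or all members of lists of at most 8. Members named beyond this rule in lists of clock, early, cholesterol and GR genes were chosen after their values were seen. Some genes that the rule names are not reported here.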

Additional observations from a re-analysis of the deposited data

How the results depend on the processing

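The count of genes passing the adjusted threshold was 1, and it was 1 with RLE size factors, 62 (9 higher, 53 lower) without a filter on low counts, 25 (6 higher, 19 lower) by DESeq2, 3 in the joint fit of 24 livers and 0 with the animal number range as a covariate. Leaving out 1 library gave 0 to 7 genes, 7 without WT replicate 1, 2 without WT replicate 2 and 0 without any 1 of the E47KO replicates. The DESeq2 calls included *Bhlhe40*, *Fdps*, *Srgap3* and *Cd14*, which the main edgeR fit did not call. The joint fit called *Btbd11*, *Gramd1b* and *Gm9855* and not *Gm15920*. The 384 genes past the 1.3-fold rule were 830 without a filter and 174 to 992 with a library left out, the extremes being those without WT replicate 2 and WT replicate 1. For the difference from untreated liver DESeq2 gave 2 genes and leaving out a library 0 to 24, and for that from Cort no filter gave 1, DESeq2 1 and leaving out a library 0 to 14, with 24 and 14 again without WT replicate 1 and 1 against Cort without E47KO replicate 3. With a replicate block 0 genes passed. The labels do not pair the mice by replicate number. Deviations of same-numbered libraries correlated at -0.0586 for replicate 1 and -0.485 for replicate 2. Within the lower animal number range, E47KO replicates 1 and 2 gave -0.0586 and 0.485 with WT replicate 1. Within the higher range, E47KO replicate 3 gave 0.334 with WT replicate 2. With 2 WT libraries, the values for WT replicate 2 are by construction the opposites of those for WT replicate 1. They are thus not separate observations. The E47KO deviations are likewise taken from their own mean, so these correlations cannot decide whether any mice were paired. The third E47KO replicate has no WT partner. The log2 fold change of *Hlf* (0.05) became -0.015 with the animal number range and ranged from -0.078 (without E47KO replicate 2) to 0.19 with a library left out, and that of *Hmgcs1* (-0.74) from -1.25 to 0.057 (without WT replicate 1). The causes were not tested. Of 86 log2 fold changes of single genes, all 86 kept their direction and side of the threshold with RLE size factors, while 23 newly passed without a filter and 18 by DESeq2. Of 33 list medians, 11 moved by more than the spread between replicates without WT replicate 1 and 1 to 4 without another library. With 2 WT animals that differ from each other as described, no list can be tied to genotype alone, and genes of few reads are limited by depth.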

Other observations

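The pseudogene next to the called one by p, *Gm9855*, and genes near *Tcf3* on chromosome 10 were looked at after their values were seen. *Gm9855* (chr10:42054113-42055306) was at 3.97, 4.20 and 2.98 CPM in E47KO and 0 and 0.0595 CPM in WT, that is 232 reads against 1, a ratio of 140 with an exact 95% interval of 24.9 to 5550 for counting error (edgeR quasi-likelihood, Benjamini-Hochberg adjusted p = 0.134). It passed the adjusted threshold in Cort and in untreated liver. *Gm9855* is 99.2% identical to *Tdg*, a thymine DNA glycosylase 2.22 Mb from *Tcf3*, and *Tdg* was at 6.70, 6.41 and 5.80 CPM against 13.2 and 8.09, log2 fold change -0.76 ± 0.24. The fitted *Tdg* changes were -1.32 in Cort and -1.35 in untreated liver, the same direction as after Dex. Reads of the pair may be exchanged between the genes, so both counts are uncertain.

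*Btbd11*, a BTB domain gene 5.1 Mb from *Tcf3*, had no read in any of the 3 E47KO livers and 15 and 20 reads in the WT livers. Against a floor of 3 reads per E47KO library, it was at least 6.45-fold lower in E47KO. *Btbd11* was lower in Cort (-2.38) and in untreated liver (-2.73) as well, as was *Rfx4*, a transcription factor gene 4.41 Mb away, at -0.996 after Dex, -2.04 in Cort and -1.76 in untreated liver, all as fitted log2 fold changes. Within 10 Mb of *Tcf3*, 11 of 212 other tested genes (5.19%) had an unadjusted p under 0.05 after Dex, and farther away on chromosome 10 it was 22 of 434 (5.07%), where all genes gave 3.08%. The clock gene *Cry1* (4.74 Mb) and the cholesterol enzyme *Lss* (-3.88 Mb), both counted in their lists above, were among the genes within 10 Mb. Which of these differences stem from the genome around the mutated locus was not tested.

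Skeletal muscle markers were low in all livers but higher in E47KO for 6 of 7 tested. They summed to 16.9, 19.0 and 6.92 CPM in E47KO and 7.22 and 10.5 CPM in WT, with overlap. Their direction depended on the animals: within the lower animal number range their median was 0.80, with 0 of 7 lower. Within the higher range it was -0.70, with 6 of 7 lower. Stellate cell and fibroblast markers were higher for 9 of 10, with a median of 0.43. This median was 0.17 without WT replicate 2, 0.22 without E47KO replicate 2 and 0.76 without WT replicate 1. Within the lower animal number range it was 0.21, with 4 of 10 markers lower, and within the higher range 0.48, with 2 of 10 lower. *Reln* was at 56.5, 64.3 and 45.8 CPM against 44.1 and 29.6, and *Colec11* at 19.5, 25.4 and 19.7 against 17.8 and 10.6, log2 fold changes 0.59 ± 0.22 and 0.60 ± 0.25. Of cholangiocyte markers 4 of 6 were lower, and the median of -0.51 was 0.12 without WT replicate 1.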
